A study of Homo sapiens with 8 samples.

Results

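Keratins are the intermediate filament proteins of epithelial cells. A filament is built from pairs of 1 type I (acidic) and 1 type II (basic or neutral) chain, so cells usually make both types together. Single-layered epithelia, such as the gut lining, rely on the simple keratins, above all KRT8 with KRT18, while stratified epithelia such as skin and the hair follicle use other sets. In the colon, KRT8, KRT18, KRT19 and KRT20 are the usual keratins, and pathologists use the presence of KRT20 with little KRT7 as a sign of colorectal origin.

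The keratin genes were taken from the expression table by name, as symbols made of KRT, a number and at most 1 letter from A to C, with pseudogenes left out. This gave 55 genes among 63816 entries. Another 10 entries repeated the symbol of 1 of these genes, and the entry with the highest mean was kept. By function, 5 genes were counted as simple keratins, 19 as keratins of stratified epithelia, 26 as hair or hair follicle keratins and 5 as others whose class is less settled (KRT23, KRT24, KRT79, KRT80 and KRT222). By sequence type, 29 were type I and 26 type II. In GRCh37, all 26 type II genes lie on chromosome 12 between 52562780 and 53343738, and 27 type I genes lie on chromosome 17 between 38810917 and 39781094. The exceptions are KRT18, a type I gene next to KRT8 on chromosome 12, and KRT34, whose kept entry has no position in the annotation used.

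The cells were labelled Caco-2, a line from a human colorectal adenocarcinoma. The 4 control samples carried the empty plasmid pcDNA3.1, and the 4 others carried the same plasmid with SIGLEC12, the gene for Siglec-XII, a member of the Siglec receptor family that the study describes as absent from untransfected Caco-2. Both groups were stable transfectants selected with G418. The series text speaks of selected stable clones and of 3 cultures per condition, and the methods describe technical replicate libraries. It is therefore not known whether the 4 samples of a group were separate cultures, and p-values measure only the spread between these samples. Each group came from its own transfection and selection, so differences between those populations and differences due to Siglec-XII cannot be told apart. In such bulk samples, fewer cells of a type and less RNA per cell cannot be told apart either.

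The label check read SIGLEC12 at 0.0795 TPM on average with the empty vector and 1667 TPM with Siglec-XII. TPM scales each sample to a total of 1000000 after dividing by transcript length, so that levels of different genes can be compared. On the scale of log2(TPM + 1) the means were 0.11 ± 0.05 and 10.70 ± 0.06 (SD, n = 4), and a two-sided exact permutation test gave p = 0.0286, its lower limit with groups of 4. Of 11 markers of colon epithelium, only the transcription factors CDX1 and CDX2 stood above 2 TPM, at 128 to 165 TPM and 34.0 to 48.8 TPM over the 8 samples. KRT20, the fatty acid-binding protein gene FABP1 and the brush border enzyme gene SI were listed at 0 TPM in every sample. The adhesion gene CDH17 and the mucin gene MUC13 reached no more than 0.333 and 0.156 TPM. Of 14 trophoblast markers, 11 reached 1 TPM, and their summed level was 1207 to 1333 TPM with the empty vector and 1174 to 1220 TPM with Siglec-XII. The defining markers of differentiated colon epithelium were therefore absent or near 0 in both groups, against the label. The trophoblast sum was mostly GATA3, at 331 to 479 TPM, PAGE4, at 233 to 347 TPM, and TFAP2C, GATA2, SIGLEC6, PEG10 and TFAP2A. The last named genes stood at 29.5 to 173 TPM. The hormone gene CGA, a defining trophoblast marker, was itself at 0.127 to 1.35 TPM. ERVW-1, ERVFRD-1 and PSG1 reached no more than 1.59, 2.48 and 2.42 TPM. CGB5, LEP and INSL4 reached no more than 0.128, 0.0457 and 0.181 TPM.

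Of the 55 keratin genes, 9 passed the filter of at least 1 TPM in 4 or more samples. Another 16 reached 0.1 TPM in some sample, 19 were above 0 but never reached 0.1 TPM, and 11 were listed at 0 TPM in all 8 samples. The last group comprised KRT20, the oral keratin KRT76 and 9 hair keratins. The number of reads behind a value is unknown, so a level listed at 0 does not show that the gene was silent.

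KRT8 and KRT18 share many bases with processed pseudogenes, copies of the mRNA inserted elsewhere in the genome, and reads from such stretches can be assigned to either. Of the 2096 distinct windows of 31 bases (the default length by which kallisto matches reads) in the KRT8 transcript named in the table, 49.0% also occurred in at least 1 of 51 annotated KRT8 pseudogenes. For KRT18 the share was 53.3% of 1666 windows, with 67 pseudogenes, and for KRT19 it was 9.93% of 1360. The levels assigned to the pseudogenes were small beside the parent genes. The KRT8 pseudogene entries summed to 17.5 ± 4.16 TPM with the empty vector and 21.8 ± 1.76 TPM with Siglec-XII (SD, n = 4), which was 0.447% and 0.473% of KRT8. The KRT18 pseudogenes summed to 0.114% and 0.136% of KRT18. KRT8P3 was the highest of them, at 5.21 to 14.0 TPM.

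The family total was nearly all simple keratin. All 55 genes together summed to 8139 ± 436 TPM with the empty vector and 9452 ± 177 TPM with Siglec-XII (SD, n = 4), or 0.814% and 0.945% of all TPM. Simple keratins made up 99.1% and 99.2% of that total, stratified keratins 0.762% and 0.687%, and hair keratins 0.0123% and 0.0190%. KRT8 alone held 48.0% and 48.9% of the family, and KRT18 36.2% in both groups. KRT8 ranked 17 and KRT18 ranked 32 by mean level among all entries of the table.

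**Figure D1:**
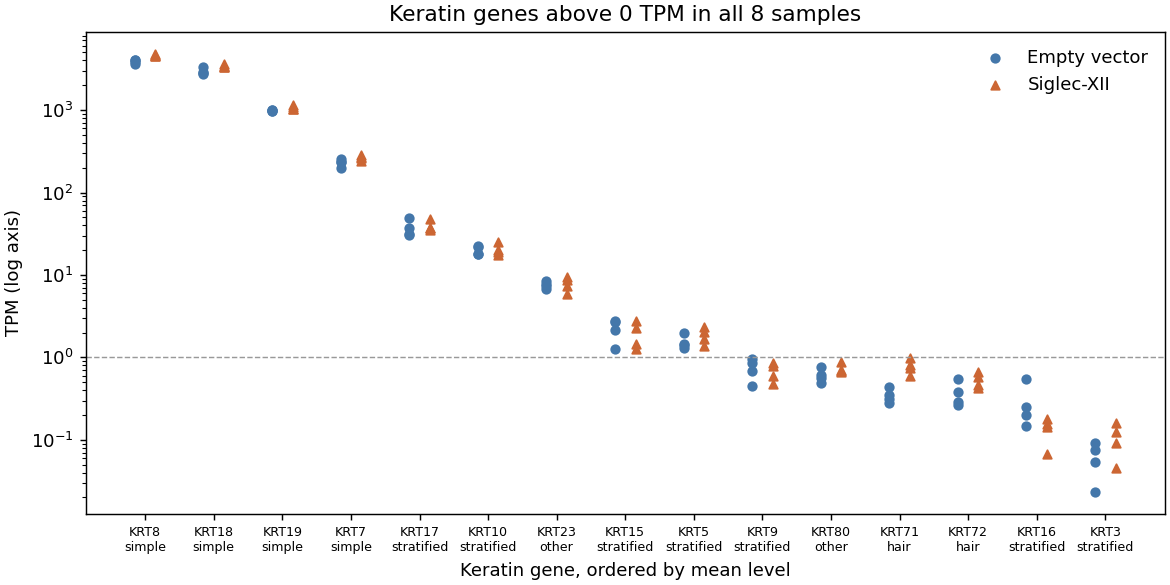
TPM on a log axis for the 15 keratin genes above 0 in all 8 samples, ordered by mean level, with 1 point per sample (circles, empty vector; triangles, Siglec-XII) and a dashed line at 1 TPM. Levels span from 2733 TPM or more for KRT8 and KRT18 to under 1 TPM for KRT9, KRT80, KRT71, KRT72, KRT16 and KRT3.

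The order of levels was the same in both groups for the most abundant genes. KRT8 stood above KRT18 in every sample, followed by KRT19, KRT7, KRT17, KRT10 and KRT23, and the ranges over samples of neighbours in this order did not overlap. KRT15 (1.25 to 2.79 TPM) and KRT5 (1.31 to 2.35 TPM) could not be ordered.

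KRT8, the main type II chain of simple epithelia (ENSG00000170421, chromosome 12, 53290971 to 53343738, minus strand), stood at 4054, 4091, 3837 and 3630 TPM in empty vector replicates 1 to 4. In the Siglec-XII samples it stood at 4623, 4541, 4772 and 4533 TPM. Every Siglec-XII sample was above every empty vector sample. The log2 fold change of TPM + 1 was 0.24 ± 0.05 (SE), a ratio of 1.18 (95% interval 1.09 to 1.28), with a limma adjusted p of 0.0860 over the 15590 entries tested.

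KRT18, the type I partner of KRT8 (ENSG00000111057, chromosome 12, 53342655 to 53346690, plus strand), had 2733, 3332, 2930 and 2793 TPM with the empty vector. With Siglec-XII it had 3296, 3365, 3391 and 3623 TPM. The groups overlapped through empty vector replicate 2, which was above Siglec-XII replicate 1. The log2 fold change was 0.22 ± 0.07 (SE), a ratio of 1.16 (95% interval 1.05 to 1.29, limma adjusted p = 0.171). The annotated spans of KRT8 and KRT18 overlap at their ends on opposite strands, and whether strand was used in assigning reads is not given in the sources used here.

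KRT19, a type I keratin with almost no tail domain (ENSG00000171345, chromosome 17, 39679869 to 39684560), was at 991, 968, 1002 and 987 TPM with the empty vector. It was at 1028, 1083, 1039 and 1161 TPM with Siglec-XII, without overlap. Its log2 fold change was 0.13 ± 0.05 (SE), a ratio of 1.09 (95% interval 1.01 to 1.17, limma adjusted p = 0.232). With equal upper quartiles the log2 fold change was 0.064.

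KRT7, a type II keratin of glands, ducts and trophoblast that is usually low in colon (ENSG00000135480, chromosome 12, 52626304 to 52645970), was at 237, 255, 233 and 200 TPM with the empty vector. With Siglec-XII it was at 259, 270, 240 and 282 TPM. The groups overlapped, since Siglec-XII replicate 3 lay below empty vector replicate 2. The log2 fold change was 0.19 ± 0.08 (SE), a ratio of 1.14 (95% interval 1.01 to 1.29, limma adjusted p = 0.273). Without empty vector replicate 4 the log2 fold change was 0.12.

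**Figure D2:**
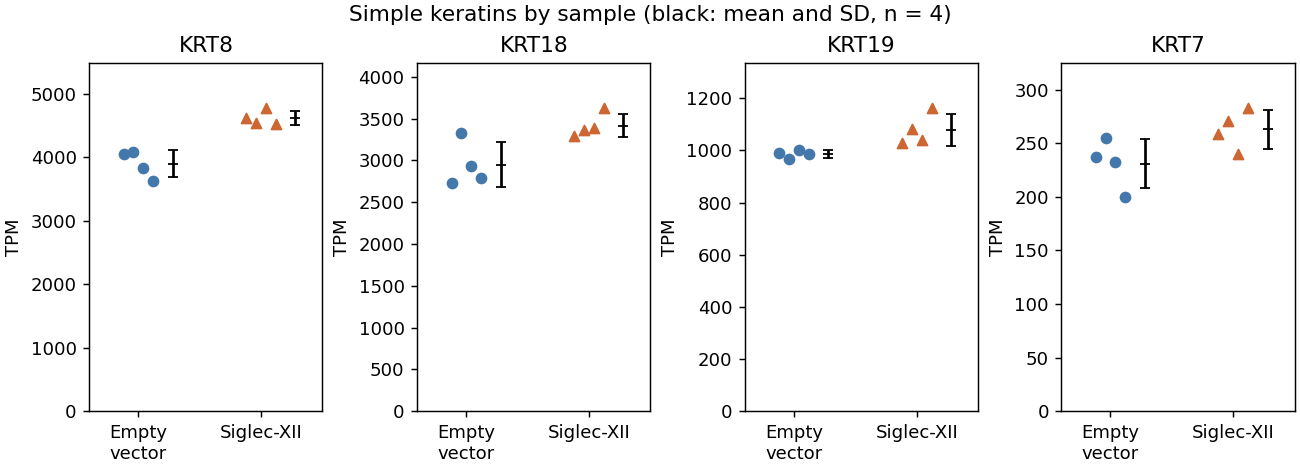
TPM of KRT8, KRT18, KRT19 and KRT7 in each sample (circles, empty vector; triangles, Siglec-XII), on axes from 0, with the mean and SD of 4 samples in black. KRT8 and KRT19 do not overlap between groups, while KRT18 and KRT7 do.

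None of the 9 keratins tested had an adjusted p under 0.05, the threshold for a call, where 0.648% of all 15590 entries did (0.34% higher and 0.308% lower with Siglec-XII). At an unadjusted p of 0.05 or less, 4 of the 9 were higher with Siglec-XII and 0 lower, while 13.9% of all entries were higher and 2.61% lower by that measure. These 4 were KRT8, KRT18, KRT19 and KRT7, that is, every simple keratin but KRT20. KRT8 and KRT18 also met that limit in all 18 alternative settings that tested them, KRT19 in 12 of 19 and KRT7 in 9 of 19. With equal upper quartiles 2 of the 9 met it, KRT8 and KRT18, against 7.2% of all entries. The groups did not overlap for 2 of the 9, KRT8 and KRT19, both higher with Siglec-XII, against 9.17% of all entries higher and 1.68% lower in that way. Over the 9 keratins, 8 log2 fold changes were above 0 and the median was 0.13. Over all tested entries 68.1% were above 0 with a median of 0.07, and the median over 1553 protein-coding entries with a mean of at least 100 TPM was 0.05. The log2 fold changes of KRT8, KRT18, KRT7 and KRT19 stood at percentiles 89.5, 86.3, 81.8 and 66.8 of all tested entries.

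**Figure D3:**
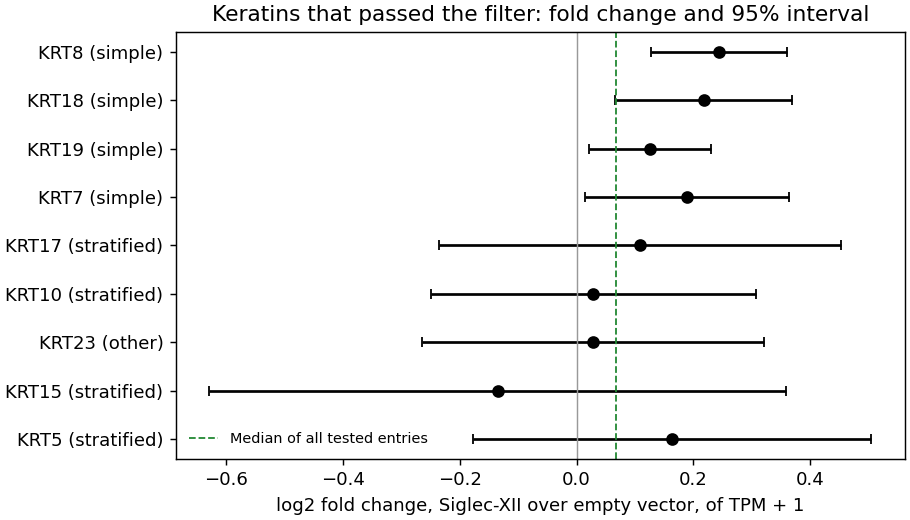
log2 fold change of TPM + 1, Siglec-XII over empty vector, with its 95% interval from limma, for the 9 keratins that passed the filter, ordered by level. The dashed line is the median of all 15590 tested entries, 0.07; the intervals of the 4 simple keratins exclude 0, and of these that of KRT8 alone lies wholly above the dashed line.

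The totals of both chain types were higher with Siglec-XII, and their ratio overlapped between the groups. Type II keratins summed to 4137 ± 235 TPM with the empty vector and 4885 ± 93.3 TPM with Siglec-XII, and type I keratins to 4002 ± 266 and 4568 ± 198 TPM (SD, n = 4). Both totals were without overlap between the groups, where 9.17% of all tested entries were higher with Siglec-XII in that way. The totals mostly repeat single genes. With Siglec-XII, KRT8 made up 4617 TPM of the type II total, and KRT18 and KRT19 made up 3419 and 1078 TPM of the type I total. Their ratio, type II over type I, was 1.04 ± 0.07 and 1.07 ± 0.06 (SD, n = 4). The ratio of KRT8 to KRT18 was 1.33 ± 0.11 and 1.35 ± 0.07, and that of KRT7 to KRT19 was 0.234 ± 0.025 and 0.244 ± 0.009 (SD, n = 4). The highest KRT8 to KRT18 ratio, 1.48, and the lowest, 1.23, both belonged to empty vector samples, replicates 1 and 2.

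Of the 19 keratins of stratified epithelia, 4 passed the filter. KRT17, a type I keratin of hair follicle, basal cells and injured skin (ENSG00000128422, chromosome 17, 39775694 to 39781094), had 36.8, 49.1, 31.3 and 30.1 TPM with the empty vector and 47.9, 35.3, 36.7 and 37.5 TPM with Siglec-XII. The groups overlapped, and the highest value of each group was about as high as that of the other. Its log2 fold change was 0.11 (95% interval -0.24 to 0.45, limma adjusted p = 0.768). It moved with single samples, to 0.25 without empty vector replicate 2 and to 0.012 without Siglec-XII replicate 1. KRT10, the type I keratin of the upper epidermis (ENSG00000186395, chromosome 17, 38974369 to 38978866), had 17.8, 17.7, 21.6 and 22.5 TPM with the empty vector and 17.3, 25.4, 19.0 and 20.0 TPM with Siglec-XII. Its log2 fold change was 0.03 (95% interval -0.25 to 0.31, limma adjusted p = 0.929), and its sign turned when samples were scaled to equal upper quartiles (-0.030).

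The basal cell keratin KRT15 had 2.21 ± 0.69 TPM with the empty vector and 1.93 ± 0.71 TPM with Siglec-XII (SD, n = 4), a log2 fold change of -0.14 (95% interval -0.63 to 0.36, limma adjusted p = 0.80). It was -0.29 without empty vector replicate 4 and -0.018 without Siglec-XII replicate 1. KRT5, the type II keratin of basal cells, had 1.54 ± 0.30 and 1.85 ± 0.42 TPM (SD, n = 4), a log2 fold change of 0.16 (95% interval -0.18 to 0.50, limma adjusted p = 0.628), which became 0.082 without Siglec-XII replicate 4. The intervals of KRT17, KRT10, KRT15 and KRT5, and that of KRT23 below, also allow changes larger than those measured for the simple keratins. KRT23, a type I keratin of less settled class, had 7.59 ± 0.73 and 7.83 ± 1.48 TPM (SD, n = 4), a log2 fold change of 0.03 (95% interval -0.27 to 0.32, limma adjusted p = 0.935), whose sign also turned with equal upper quartiles (-0.027).

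The usual partners were unevenly present. KRT14, which pairs with KRT5 in basal cells, was at 0 to 0.535 TPM, and KRT1, which pairs with KRT10 in upper epidermis, never reached 0.1 TPM. KRT6A and KRT16, a pair of wounded skin, had highest values of 0.153 and 0.544 TPM. TP63, the transcription factor of basal and squamous cells, was nevertheless at 29.5 to 39.5 TPM in the 8 samples. The cornified envelope genes LOR, SPRR1A, SPRR2A and SPRR3 were listed at 0 TPM in every sample, and involucrin (IVL) reached no more than 0.244 TPM. Of the 13 genes listed for stratified epithelium and cornified envelope, 2 passed the filter. These were the desmosomal cadherin DSC3, at 9.0 to 12.9 TPM over the 8 samples, and the cross-linking enzyme TGM1, at 2.28 to 3.92 TPM. Their log2 fold changes were 0.15 and -0.23 (limma adjusted p = 0.528 and 0.437).

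None of the 26 hair keratins passed the filter, and none reached 1 TPM. The highest was KRT71, a type II keratin of the inner root sheath of the hair follicle (ENSG00000139648, chromosome 12, 52937693 to 52946929, minus strand). It had 0.354, 0.282, 0.436 and 0.312 TPM with the empty vector and 0.809, 0.589, 0.735 and 0.985 TPM with Siglec-XII. Every Siglec-XII sample was above every empty vector sample, with group means of 0.346 and 0.780 TPM. KRT72, also of the inner root sheath, had 0.369 ± 0.127 and 0.533 ± 0.111 TPM (SD, n = 4), with the groups overlapping. Of the 16 keratins that reached 0.1 TPM without passing the filter, 2 did not overlap between groups, KRT71 and the hair shaft keratin KRT86, both higher with Siglec-XII. Of the 18768 entries of that kind in the table, 1.34% were higher and 0.751% lower in this way.

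These low levels were not among the entries tested. In a fit with no filter on low values, KRT71 differed by 0.40 on the log2 scale (limma adjusted p = 0.316). KRT86 was listed at 0 to 0.157 TPM with the empty vector and 0.170 to 0.205 TPM with Siglec-XII, and its annotated span overlaps that of KRT7 on the same strand. The antisense entry KRT7-AS stood at 0.313 to 0.980 TPM. The 159 entries of keratin-associated proteins, the matrix proteins of hair, summed to 4.01 ± 1.06 TPM with the empty vector and 3.07 ± 0.33 TPM with Siglec-XII (SD, n = 4).

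**Figure D4:**
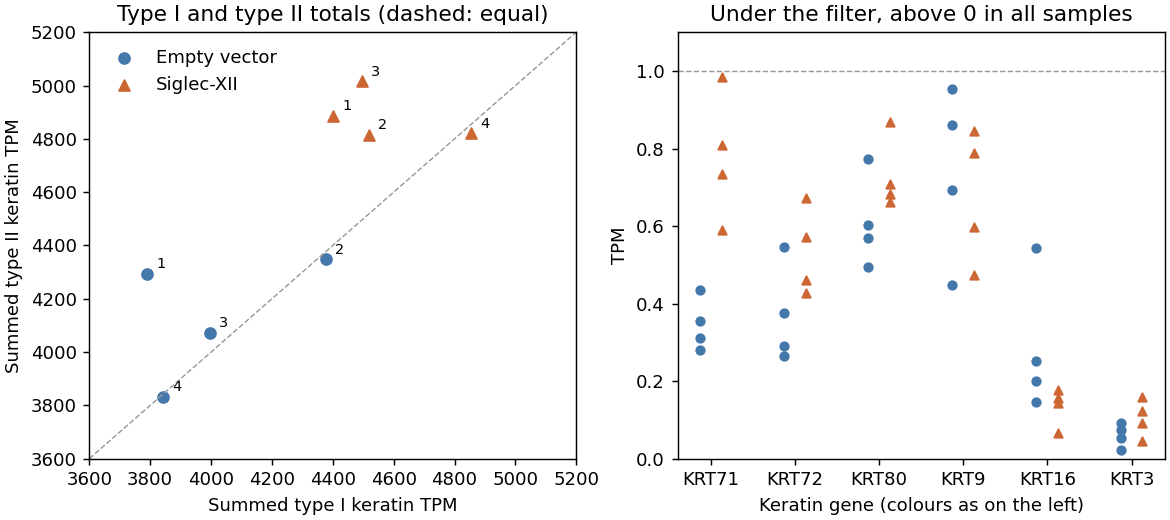
Left, summed TPM of type II against type I keratins, 1 point per sample with its replicate number and a dashed line of equal sums. Right, TPM of the 6 keratins below the filter but above 0 in all samples (circles, empty vector; triangles, Siglec-XII); KRT71 is the 1 gene among them without overlap, at 0.346 against 0.780 TPM on average.

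Genes that anchor or regulate keratin filaments were read from the same fit. Of 10 linker genes, which tie filaments to desmosomes and other structures, 8 were tested and all 8 had a log2 fold change above 0, with a median of 0.15, where 68.1% of all entries were above 0 with a median of 0.07. No adjusted p was under 0.05, while 5 genes were higher with p at or under 0.05 before adjustment, against 13.9% of all entries. With equal upper quartiles these were 3 genes, 7 of the 8 were above 0 and the median was 0.09. The transcripts listed for PKP2, PPL, EPPK1, DSP, PLEC and DST were long, at 4229 to 16742 bases. Those of PKP3 and JUP were shorter, at 756 and 3298 bases. Without that scaling, the median log2 fold change was 0.10 over the 3381 entries in the longest class of transcript length. It was 0.03 over the 435 entries in the shortest class. The part of transcript length in the linker differences was not tested. Desmoplakin (DSP), which binds keratin at the desmosome, was at 122 ± 6.95 and 145 ± 8.89 TPM (SD, n = 4), and its difference was 0.25 on the log2 scale (limma adjusted p = 0.104). Plectin (PLEC), a large cytoskeletal linker, was at 23.6 ± 2.57 and 28.6 ± 0.62 TPM (SD, n = 4), a difference of 0.28 on the log2 scale (limma adjusted p = 0.142). Plakophilin 2 (PKP2), plakoglobin (JUP) and periplakin (PPL), also desmosomal or linker proteins, had log2 fold changes of 0.18, 0.17 and 0.12. The linkers PKP1 and EVPL, of stratified epithelia, did not pass the filter.

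Of the 7 keratin-binding proteins, all tested, 4 had log2 fold changes above 0 and 3 below, with 0 adjusted p under 0.05. Before adjustment, 2 were higher at p of 0.05 or less, against 13.9% of all entries, and 0 were with equal upper quartiles or when scaled without the most abundant entries. These 2 were FAM83H, which organizes keratin filaments by recruiting a kinase, at 0.20, and the 14-3-3 protein gene YWHAZ at 0.13. Of 16 genes of other intermediate filaments, 11 were tested. Of these, 10 were above 0 with a median log2 fold change of 0.10, beside 68.1% and 0.07 over all entries. LMNB2, a nuclear lamin, was the 1 gene with an unadjusted p of 0.05 or less (log2 fold change 0.10, limma adjusted p = 0.274). Over all entries 13.9% were higher by that measure, and with equal upper quartiles 0 genes of this list were. Vimentin (VIM), the main filament of mesenchymal cells, was at 29.1 ± 1.75 and 30.6 ± 2.41 TPM (SD, n = 4), far under KRT8 in every sample.

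Of 17 transcription factors of epithelial differentiation, 14 were tested, 13 were above 0 and the median log2 fold change was 0.13, again beside 68.1% and 0.07 over all entries. No adjusted p was under 0.05, while 5 genes were higher with p at or under 0.05 before adjustment, against 13.9% of all entries. With equal upper quartiles these were 3 genes, 11 of the 14 were above 0 and the median was 0.08. KLF4, a factor of epithelial differentiation in gut and skin, was the furthest apart, at 10.8 ± 1.53 TPM with the empty vector and 15.9 ± 1.65 TPM with Siglec-XII (SD, n = 4). The difference was 0.52 ± 0.11 on the log2 scale (SE, limma adjusted p = 0.0797). Without empty vector replicate 2 it was 0.60 (limma adjusted p = 0.0311), where the calls over all entries also rose from 101 to 154. This was the 1 alternative of 19 in which KLF4 was called, and its limma adjusted p ranged up to 0.193. OVOL1 (0.27), CDX2 (0.23), the general factor SP1 (0.19) and CDX1 (0.17) had limma adjusted p of 0.160, 0.252, 0.134 and 0.202. HNF4A and EHF, factors of gut or glandular epithelium, did not reach 0.2 TPM in any sample.

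**Figure D5:**
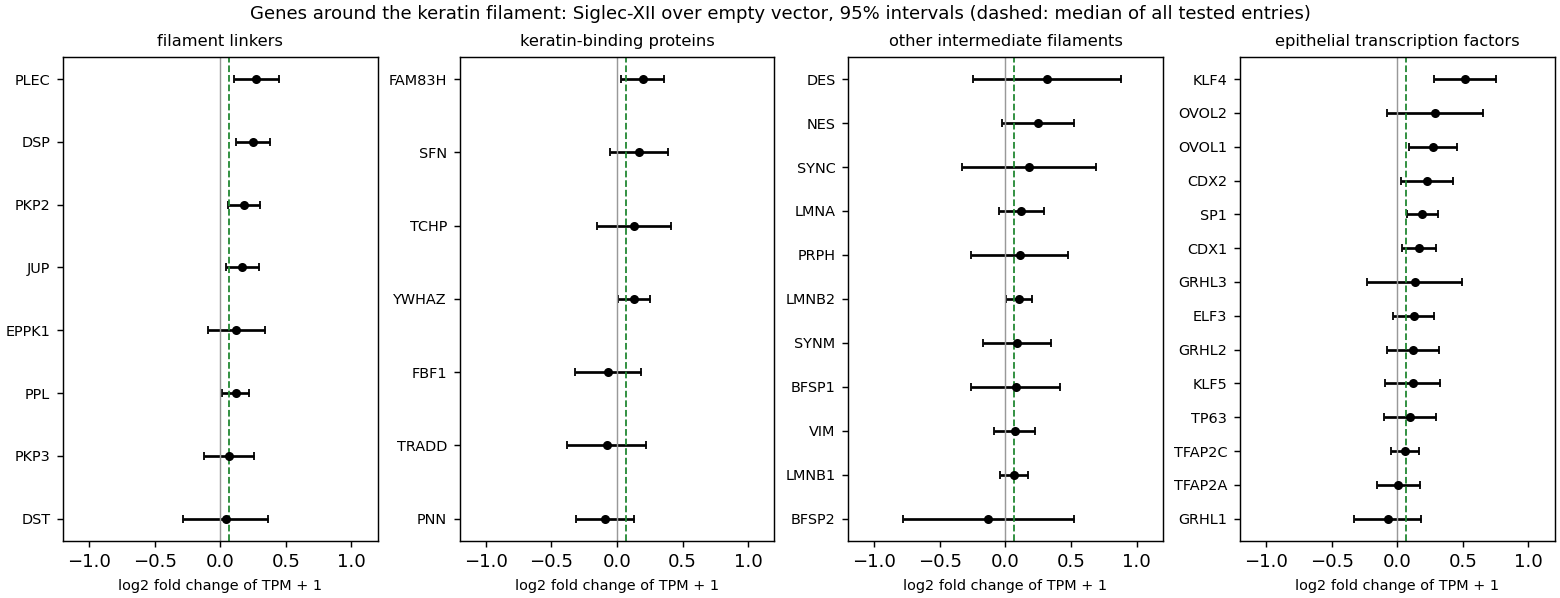
log2 fold change of TPM + 1, Siglec-XII over empty vector, with 95% intervals, for the tested linkers, keratin-binding proteins, other intermediate filaments and epithelial transcription factors. The dashed line is the median of all tested entries, 0.07; KLF4, at 0.52, lies furthest to the right.

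Summed markers of fibroblasts, basal cells and trophoblast overlapped between the groups, and those of colon did not. The 8 fibroblast and mesenchymal markers summed to 99.1 to 117 TPM with the empty vector and 112 to 123 TPM with Siglec-XII, with THY1 listed at 0. Of the 6 tested, COL1A1 alone had p at or under 0.05 before adjustment, where 13.9% of all entries were higher by that measure. The 7 basal and squamous markers summed to 31.7 to 41.3 and 36.6 to 41.2 TPM. Of the 11 trophoblast markers tested, 5 were above 0 and 6 below, beside 68.1% of all entries above 0. GATA2 alone had an unadjusted p of 0.05 or less (log2 fold change 0.19), again against 13.9% of all entries. The 11 colon markers summed to 164 to 187 TPM with the empty vector and 191 to 216 TPM with Siglec-XII, without overlap. Almost all of this was CDX1 and CDX2, and each of them alone overlapped between the groups. Of all tested entries, 9.17% were higher with Siglec-XII without overlap. CDX1 and CDX2 were both higher at an unadjusted p of 0.05 or less, and 0 colon markers were with equal upper quartiles. The part of these markers in the keratin differences was not tested.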

How the data were processed

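RNA-seq libraries of 8 Caco-2 samples (4 empty vector, 4 Siglec-XII) were made, per the labels, with a strand-specific total RNA kit and read as paired 100 bp reads, with 25 to 40 given as the approximate number of reads in units of 1000000 per sample; the methods of the study name an mRNA kit. The authors quantified reads with kallisto (version 0.45.0 in the submitters' processing notes) against hg19 and deposited log2(TPM + 1) per gene, so each column sums to 1000000 TPM and the reads behind a value are unknown. Intervals from counts could not be given.

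Groups were taken from the sample titles. limma 3.58.1 in R 4.3.3 (lmFit, eBayes with trend) compared the groups on log2(TPM + 1), a pseudocount of 1. The 15590 entries with at least 1 TPM in 4 or more samples were tested, with Benjamini-Hochberg adjustment. The fit was also run on simulated data, with planted changes larger than those measured for the simple keratins. That run therefore does not show whether differences of their size would be called. The study names a count test, which could not be applied to TPM. The two-sided exact permutation test was used for the SIGLEC12 label check alone. Sums over keratins were described without a test. Positions and transcripts came from GENCODE lifted to GRCh37. Of 93 symbols in the other gene lists, 92 were in the table, the last, LORICRIN, being the newer name of LOR. Figures were drawn with matplotlib 3.10.9.

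The keratins and gene lists were chosen with earlier results of these data known. All keratins past the filter could be named, as could others reaching 0.1 TPM, list genes at an unadjusted p of 0.05 or less or among the most abundant of a list, and marker genes. KRT1 and genes named as low or at 0 TPM beyond this were chosen after their values were seen. Alternatives were a pseudocount of 0.1, other filters and scalings, a block for replicate number, leaving out samples singly, no trend and pseudogenes summed with their parents. Chosen after the data were seen were a scaling by the TPM left after setting aside mitochondrially encoded entries and the top 100, which stayed in the fit, and protein-coding entries only. Some sequences and 1 listed gene are not reported here.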

Additional observations from a re-analysis of the deposited data

How the results depend on the processing

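Across 19 alternatives no keratin reached an adjusted p under 0.05. KRT8, KRT18, KRT19 and KRT7 stayed above 0 in every alternative that tested them, from 0.18 to 0.31, 0.16 to 0.30, 0.064 to 0.15 and 0.12 to 0.24 on the log2 scale. Their adjusted p ranged from 0.0568 to 0.263, 0.0616 to 0.420, 0.188 to 0.621 and 0.154 to 0.557. Of 9 keratins tested, 4 were higher at p of 0.05 or less before adjustment (13.9% of all entries). They became 2 with equal upper quartiles (7.2%), without the eBayes trend (13.1%), or scaled (after seeing the data) without mitochondrially encoded and the 100 most abundant entries (8.81%). These 2 were KRT8 and KRT18 each time. The count was 0 of 8 when the mitochondrially encoded and most abundant entries, KRT8 and KRT18 among them, were left out (8.4%). KRT19 and KRT7 missed that limit there, as they did with those entries kept (the cause was not tested). With no filter there were 6 of 44 (6.99%). Leaving out 1 sample gave 2 to 4, with 2 without Siglec-XII replicate 2 (12.2%) or 4 (10.2%). Without 1 sample, KRT17 ranged from 0.012 to 0.25, KRT15 from -0.29 to -0.018 and KRT5 from 0.082 to 0.25. Fold changes near 0 turned sign: KRT10 with quantile normalization (-0.041), equal upper quartiles (-0.030), those entries left out (-0.012) or kept but not used for scaling (-0.012), and without 1 sample (-0.076 to 0.10). KRT23 did likewise (-0.033, -0.027, -0.011 and -0.010) and without 1 sample (-0.052 to 0.14). Of the listed partner genes, 0 had an adjusted p under 0.05, and 1, KLF4, did without empty vector replicate 2. The SIGLEC12 difference of 10.59 was 13.20 with a pseudocount of 0.1 and 10.57 to 10.62 without 1 sample, where the smallest possible permutation p is 0.0571. The replicate block left 0 keratins with an adjusted p under 0.05 and KRT8 at an adjusted p of 0.158. Same-numbered samples deviated together with correlations of -0.07 to 0.06, and differently numbered samples with -0.12 to 0.07. No pairing by number was seen, though such correlations cannot exclude it. The block moved the calls over all entries from 101 to 69. That count was 51 with no filter, 54 without the trend, 58 over protein-coding entries, and 40 (without empty vector replicate 3) to 154 (without empty vector replicate 2) with 1 sample left out. Class sums and the type ratio were not run with the most abundant entries left out, since KRT8 and KRT18 are among them. Summing pseudogenes with their parents left KRT8 at 0.24. The unknown read depth limits the keratins under 1 TPM most.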
